A study of Mus musculus with 8 samples.

Results

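The 10 genes of trophoblast transcription factors were followed in mouse embryonic stem cells (ESCs) and neural precursor cells (NPCs): *Cdx2*, *Gata2*, *Gata3*, *Hand1*, *Elf5*, *Tfap2c*, *Tead4*, *Ets2*, *Esx1* and *Gcm1*. They were taken as a list of names, and all 10 were among the 26263 genes of the count tables. RNA-seq libraries came from ESCs and from cultures at day 12 of *in vitro* corticogenesis, with 2 libraries for each stage and each reciprocal cross, 8 in all. The B/J line, BJE2, is labelled C57BL/6 x JF1, with B6 as the maternal genome. The J/B line, JBE6, is labelled JF1 x C57BL/6, with JF1 as the maternal genome. Each cross was thus 1 male ESC line, derived from a blastocyst. ESCs were kept in ESGRO medium with LIF, BMP4 and a GSK3-β inhibitor. For corticogenesis they were plated on Matrigel in defined default medium with B27 and dorsomorphin homolog 1, an inhibitor of BMP receptors. The sources describe NPCs as the main population of these cultures, not as the only one, and no sort is mentioned. Libraries were made with either of 2 mRNA kits and run on either of 2 instruments, and which library had which is not given. Nor do the labels say whether the replicates were separate cultures, so p-values measure the spread between these libraries, which may be technical.

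The trophoblast is the outer lineage of the blastocyst, which forms the placenta and not the embryo. Hippo signalling through TEAD4, with GATA3, acts above CDX2 in setting this lineage apart from the pluripotent cells. CDX2, ELF5, TFAP2C and ETS2 are known for the maintenance of trophoblast stem cells, HAND1 for trophoblast giant cells, GATA2 and GATA3 for placental hormone genes, GCM1 for the syncytiotrophoblast and ESX1 for the labyrinth. Most are also used in the embryo itself. CDX2 acts in the tail bud and gut, HAND1 in heart and lateral mesoderm, GATA2 in blood and endothelium, GATA2 and GATA3 in inhibitory neurons of the brainstem and in sympathetic neurons, and TFAP2C in germ cells and surface ectoderm.

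The members lie on 7 chromosomes of GRCm39: *Cdx2* at chr5:147237615-147244091, *Gata2* at chr6:88170559-88184018, *Gata3* at chr2:9861889-9894845, *Hand1* at chr11:57719531-57723644, *Elf5* at chr2:103242033-103281334, *Tfap2c* at chr2:172391321-172400542, *Tead4* at chr6:128201251-128277786, *Ets2* at chr16:95502847-95522095, *Esx1* at chrX:136016146-136022832 and *Gcm1* at chr9:77959206-77974048. The annotation places exons of other RNAs over 3 of them. Exons of *Gata2* share 921 bases with the antisense *Spehd*, those of *Gata3* share 303 bases with the antisense *Gm13256* and 77 bases with *Gata3un* on its own strand, and those of *Hand1* share 735 bases with the antisense *Gm32915*. None of these RNAs has an entry of its own in the tables, and the use of strand in counting is not stated, so reads of *Gata2*, *Gata3* and *Hand1* may include theirs.

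The upstream windows of the members, the 250 bases before the annotated start, differed in their CpG content. They held from 0 CpG dinucleotides (*Gcm1*) to 19 (*Esx1*), where the median of 21757 protein-coding promoters was 8. Both strands were searched for short cores. The letters AGATAA, a form of the core bound by GATA factors, were in none of the 10 windows and in 9.61% of all promoters of that length. Other forms of that core were not searched. The TEAD core GGAATG was before *Tfap2c* and *Esx1* (12.1% of all promoters), the ETS core CCGGAA, which can overlap it by 4 bases, before *Gata3* (12.4%), and the CDX core TTTATG before *Elf5* (9.997%). The AP-2 form GCCNNNGGC was found 3 times before *Gata3* (13.2%), and the TATA box TATAAA before none (11.9%). The E-box CANNTG was before 6 members and 64.8% of all promoters. These are matches of letters, not sites. Of the windows that overlap no annotated exon, 3 are shown as examples. Their genes were higher in NPC than in ESC libraries in CPM on library totals, as was *Elf5*, whose window (8 CpGs) is not shown. Those shown run from 7 to 13 CpGs. They were read from GRCm39, 5′ to 3′ on the strand of the gene, with CpGs in capitals.
Tfap2c (chr2:172391071-172391320, plus strand): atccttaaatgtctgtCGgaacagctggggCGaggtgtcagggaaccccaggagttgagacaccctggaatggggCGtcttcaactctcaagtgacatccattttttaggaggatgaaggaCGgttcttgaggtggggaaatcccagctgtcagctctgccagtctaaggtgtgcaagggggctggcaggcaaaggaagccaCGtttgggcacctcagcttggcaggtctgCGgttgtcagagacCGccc
Cdx2 (chr5:147244092-147244341, minus strand): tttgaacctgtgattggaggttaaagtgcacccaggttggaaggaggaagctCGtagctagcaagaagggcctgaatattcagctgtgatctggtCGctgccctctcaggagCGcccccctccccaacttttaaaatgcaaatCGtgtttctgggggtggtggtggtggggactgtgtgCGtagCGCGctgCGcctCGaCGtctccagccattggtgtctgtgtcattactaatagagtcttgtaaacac
Ets2 (chr16:95502597-95502846, plus strand): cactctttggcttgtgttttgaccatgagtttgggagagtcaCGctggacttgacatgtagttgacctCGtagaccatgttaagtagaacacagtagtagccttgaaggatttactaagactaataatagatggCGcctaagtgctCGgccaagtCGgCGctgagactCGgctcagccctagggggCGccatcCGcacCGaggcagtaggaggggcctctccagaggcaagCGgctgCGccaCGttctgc

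Libraries held 22537138 to 32706015 reads on genes. Levels are given in CPM on these totals, where 1 read was 0.0306 to 0.0444 CPM, and intervals or limits from counts cover counting error only. The labels were checked against markers. All 6 pluripotency markers fell from ESCs to NPCs, and 5 of 6 neural precursor markers rose, while *Pax6* did not pass (log2 fold change 1.77, adjusted p = 0.0606) but did with library totals (adjusted p = 0.0293) and with DESeq2 (adjusted p = 0.0104). The summed pluripotency markers were at 3406 to 4562 CPM in ESCs and 157 to 359 CPM in NPCs. The summed neural markers were at 17.1 to 50.3 CPM in ESCs and 132 to 553 CPM in NPCs.

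The comparison of NPCs with ESCs asks which of these genes change on neural commitment. Of the 10 members, 8 were higher in NPCs, 1 was lower and 1 did not pass the adjusted threshold of 0.05 in edgeR's quasi-likelihood test. Of all 16399 genes tested, 37.5% were called higher and 31.9% lower. The median log2 fold change of the members was 3.36 and that of all genes 0.17. In CPM, 9 members were higher in all 4 NPC libraries than in all 4 ESC libraries, against 46.7% of all genes, and none was lower in all of them (20.5% of all genes). With TMM factors, a scaling added after the data were seen, 8 members were higher in this way (35.3% of all genes), since *Tfap2c* then overlapped, and none lower (31.2%). All 10 members passed the filter on low counts, but *Elf5* and *Gcm1* passed through their NPC libraries alone. In these bulk samples, more cells of a type and more RNA per cell cannot be told apart.

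**Figure D1:**
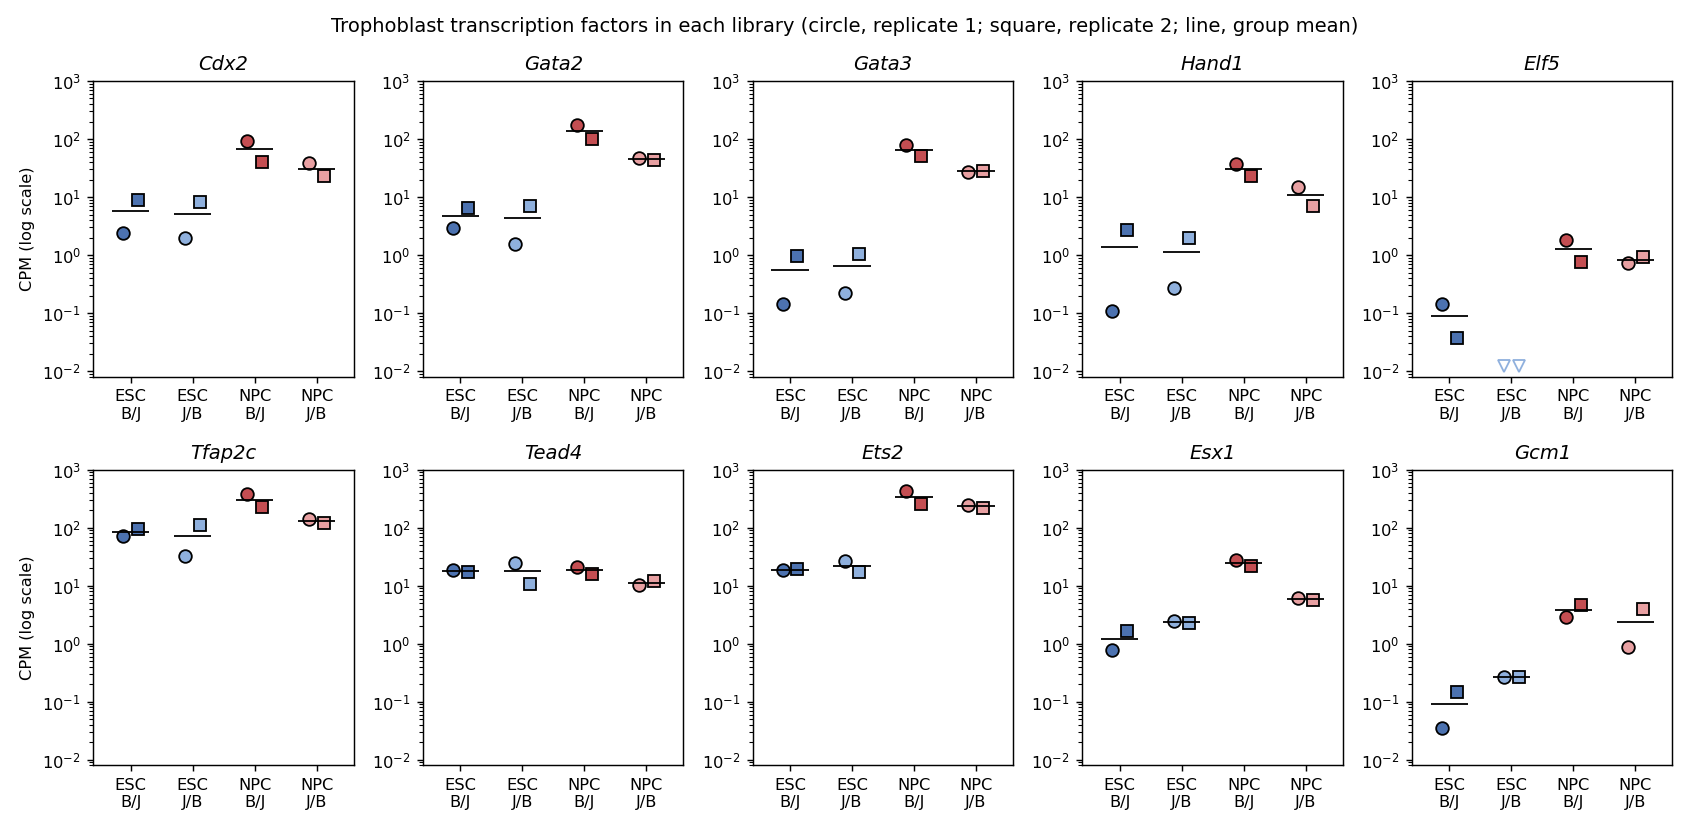
CPM of the 10 members in each of the 8 libraries on a log axis, by stage and cross, with circles for replicate 1, squares for replicate 2 and a line at the group mean; the open triangles for *Elf5* stand for 0 counts. On this scale all members but *Tead4* show NPC libraries above all ESC libraries (with TMM factors also *Tfap2c* overlaps), and *Tead4* stays between 10.2 and 24.7 CPM.

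*Tead4*, the DNA-binding partner of the Hippo effectors YAP and TAZ, stands at the head of the pathway. In ESCs it was at 18.9 and 17.4 CPM in B/J and at 24.7 and 10.9 CPM in J/B. In NPCs it was at 21.4 and 15.9 CPM in B/J and at 10.2 and 12.3 CPM in J/B. The stages overlapped, with the lowest value in NPCs and the highest in ESCs, both in J/B. The test called it lower, at -0.80 on the log2 scale with a standard error of 0.295 (adjusted p = 0.0408). That call ended with library totals in place of TMM factors (-0.31, adjusted p = 0.3455), with scaling to *Gapdh*, *Gusb* and *Tbp* (-0.15, adjusted p = 0.642), with limma-voom (adjusted p = 0.0544) and without any 1 of 6 libraries, all but ESC J/B replicate 2 and NPC B/J replicate 1 (for example -0.42, adjusted p = 0.144, without ESC J/B replicate 1).

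*Cdx2*, which is needed for the trophoblast lineage and represses pluripotency genes in it, was at 2.42 and 8.90 CPM in B/J ESCs and at 1.95 and 8.19 CPM in J/B ESCs. In NPCs it was at 92.4 and 40.4 CPM in B/J and at 38.7 and 23.3 CPM in J/B. The lowest NPC library was above the highest ESC library, and the 2 replicates of a group differed by several fold in ESCs. The log2 fold change was 2.63 (standard error 0.575, adjusted p = 0.00434), and 3.22 or 3.29 without replicate 2 of B/J or of J/B ESCs.

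*Gata3*, the GATA factor of the early trophectoderm, was almost unread in ESCs, where B/J libraries had 0.142 and 0.948 CPM and J/B libraries 0.222 and 1.06 CPM. In NPCs it was at 79.8 and 50.7 CPM in B/J and at 27.1 and 28.4 CPM in J/B. It had the largest log2 fold change of the members, 5.69 (standard error 0.590, adjusted p = 1.14e-04), which was 6.62 without ESC B/J replicate 2 and 6.44 without ESC J/B replicate 2. *Gata2* went from 2.95 and 6.57 CPM in B/J ESCs and 1.55 and 7.05 CPM in J/B ESCs to 175 and 98.7 CPM in B/J NPCs and 46.6 and 43.1 CPM in J/B NPCs. Both GATA genes were thus higher in every NPC library, and higher in B/J than in J/B NPCs. The log2 fold change of *Gata2* was 3.65 (standard error 0.483, adjusted p = 3.62e-04), and 4.36 without ESC J/B replicate 2.

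Among the genes of trophoblast stem cells, *Ets2*, which acts downstream of FGF signalling, had the smallest spread. It was at 18.5, 19.4, 26.4 and 17.5 CPM in the 4 ESC libraries and at 425, 260, 249 and 216 CPM in the NPC libraries, in the order B/J 1, B/J 2, J/B 1 and J/B 2. Its log2 fold change was 3.31 (standard error 0.234, adjusted p = 2.91e-05), the lowest adjusted p of the members. *Tfap2c*, an AP-2 factor, was already high in ESCs, at 73.1, 95.5, 32.8 and 112 CPM in the same order, and at 386, 224, 142 and 123 CPM in NPCs. The lowest NPC library was above the highest ESC library in these units. In TMM-normalized CPM, J/B NPCs (119 and 102) were below ESC J/B replicate 2 (126), and the change of 0.90 (standard error 0.356, adjusted p = 0.0520) did not pass. It passed in 9 of 18 alternatives, among them library totals (1.36, adjusted p = 0.0126), DESeq2 (adjusted p = 0.0168) and without ESC J/B replicate 2 (1.45, adjusted p = 0.00180), and its adjusted p ranged from 0.00180 to 0.164.

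*Elf5*, a marker of the stem cell compartment, was the least read member. The B/J ESC libraries held 4 and 1 reads and the J/B ESC libraries 0 and 0, where 3 reads would be 0.133 and 0.113 CPM. The B/J NPC libraries held 55 and 20 reads and the J/B NPC libraries 24 and 24, which is 0.734 to 1.79 CPM. The gene was called higher (adjusted p = 0.00205), and its fitted change depends on the prior count. The pooled NPC/ESC ratio was 22.2 on library totals (95% interval 9.27 to 69.7) and 15.98 with TMM factors (6.66 to 50.1). Within J/B, *Elf5* was at least 13.5-fold higher on library totals, and 9.64-fold by TMM, when its 0 reads are replaced by a floor of 3 counts for the group.

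The genes of differentiated trophoblast were low or nearly unread in ESCs. *Hand1* was at 0.107 and 2.66 CPM in B/J ESCs and 0.266 and 1.999 CPM in J/B ESCs, and at 37.6, 23.2, 14.8 and 7.03 CPM in the NPC libraries. Its replicates in B/J ESCs had a larger ratio than those of any other member, and its change of 3.40 (standard error 0.871, adjusted p = 0.00906) became 5.20 without ESC B/J replicate 2 and 4.42 without ESC J/B replicate 2. *Gcm1* had 1, 4, 6 and 7 reads in the ESC libraries and 90, 124, 29 and 100 reads in the NPC libraries, at most 4.67 CPM. It was higher by 3.76 (standard error 0.668, adjusted p = 0.00153), by 4.38 without ESC B/J replicate 2 and by 3.06 without NPC J/B replicate 2. *Esx1*, an X-linked homeobox gene, was at 0.783, 1.68, 2.44 and 2.26 CPM in ESCs and at 27.7, 21.7, 6.24 and 5.62 CPM in NPCs. It rose by 2.36 (standard error 0.307, adjusted p = 3.20e-04).

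Per kb of the canonical transcript, which allows levels to be compared between genes, *Tfap2c* led in ESCs at 25.8 ± 11.3 CPM per kb (SD, n = 4 libraries). *Ets2* followed at 5.13 ± 1.02, *Tead4* at 3.03 ± 0.954 and *Cdx2* at 2.36 ± 1.62 CPM per kb, and the other 6 were at or below 1.27 CPM per kb. In NPCs *Tfap2c* (72.2 ± 39.6) and *Ets2* (72.1 ± 23.5) stood together at the top. *Gata2* (25.3 ± 17.1), *Cdx2* (21.4 ± 13.3), *Gata3* (14.3 ± 7.59), *Hand1* (10.8 ± 6.86) and *Esx1* (9.06 ± 6.58) formed a middle range in which neighbours did not differ beyond their spread. *Tead4* was at 2.52 ± 0.825, *Gcm1* at 0.964 ± 0.510 and *Elf5* at 0.473 ± 0.224 CPM per kb. With the union of all annotated exons as length, *Gata2* moved from rank 5 to 7 in ESCs, and in NPCs *Gata2* and *Cdx2*, and *Gata3* and *Hand1*, changed places.

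**Figure D2:**
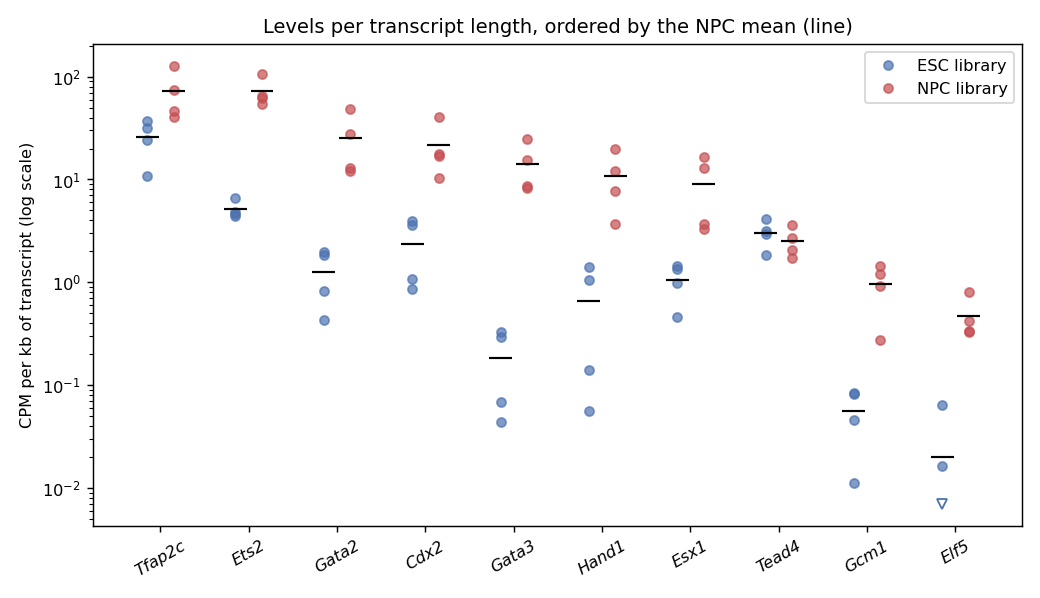
CPM per kb of canonical transcript for each member on a log axis, ESC libraries in blue and NPC libraries in red, with a line at the mean of 4 libraries; the open triangle stands for 0 counts. The order runs from *Tfap2c* and *Ets2*, both near 72 CPM per kb in NPCs, to *Elf5* at 0.473.

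Within each cross 9 members had a positive and *Tead4* a negative estimate. The estimate of *Tead4* within B/J turned to 0.04 with library totals and 0.07 with scaling to *Gapdh*, *Gusb* and *Tbp*, and that of *Tfap2c* within J/B to -0.20 without ESC J/B replicate 1, none of them called. Within B/J, 9 members were called higher (all but *Tead4*) and none lower, where 30.1% of all genes were called higher and 25.6% lower. The number fell to 5 without ESC B/J replicate 1 and to 5 without NPC B/J replicate 1, each time without *Cdx2*, *Hand1*, *Elf5* and *Tfap2c*. Within J/B, 5 members were called higher, *Gata2* (2.91), *Gata3* (4.93), *Ets2* (2.91), *Gcm1* (2.66) and *Elf5*, where 29.1% of all genes were called higher, and *Tead4* was called lower (-1.17, adjusted p = 0.0464; 25.3% of all genes). *Cdx2* (2.15, adjusted p = 0.0528), *Hand1* (2.79, adjusted p = 0.0850), *Esx1* (0.85, adjusted p = 0.119) and *Tfap2c* (0.41, adjusted p = 0.509) did not pass within J/B. *Cdx2* passed there in 8 of 18 alternatives and *Hand1* in 4. For both, these included a replicate block within each stage (*Cdx2* 2.42, adjusted p = 1.99e-04, *Hand1* 3.52, adjusted p = 5.23e-04). *Esx1* passed with library totals (1.33, adjusted p = 0.0279) and scaling to *Gapdh*, *Gusb* and *Tbp* (1.60, adjusted p = 0.0148). Without ESC J/B replicate 2, *Cdx2* (3.48, adjusted p = 0.0231) and *Tfap2c* (1.498, adjusted p = 0.0184) passed there, and *Hand1* was at 4.83 (adjusted p = 0.0514), *Gata2* at 4.34 and *Gata3* at 6.43. Without ESC J/B replicate 1, *Hand1* was at 2.01 (adjusted p = 0.249), *Cdx2* was at 1.48 (adjusted p = 0.182), *Tfap2c* at -0.20 (adjusted p = 0.667), *Gata2* at 2.23 and *Gata3* at 4.27. *Gcm1* lost its call with limma-voom (2.17, adjusted p = 0.0839) and without any 1 of 5 libraries (1.25 without NPC J/B replicate 2). *Tead4* lost its call without each library but ESC J/B replicate 2, with library totals (-0.66, adjusted p = 0.190), with scaling to *Gapdh*, *Gusb* and *Tbp* (-0.37, adjusted p = 0.441) and with limma-voom (adjusted p = 0.0819).

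**Figure D3:**
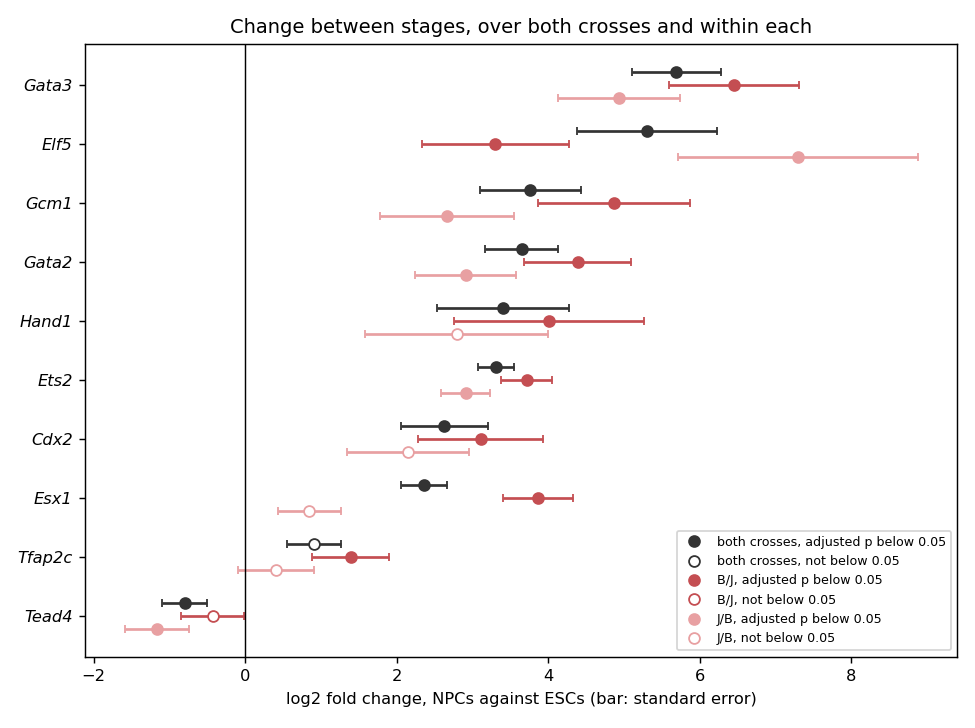
Log2 fold change of each member, NPCs against ESCs, over both crosses (black), within B/J (red) and within J/B (pink), with bars for 1 standard error and filled points for an adjusted p below 0.05. The estimate of *Esx1* is 3.87 in B/J and 0.85 in J/B, while that of *Elf5* in J/B rests on 0 reads in ESCs.

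Whether the stage change differs between the crosses was tested as an interaction. No member was called, and none of the 16399 genes (0%), with 573 genes (3.49%) and 1 member at an unadjusted p under 0.05. That count of genes ran from 292 without NPC B/J replicate 1 to 1151 without NPC B/J replicate 2, 1325 without ESC J/B replicate 2 and 1715 with a replicate block in each stage. DESeq2 called 11 genes and limma-voom 0. The member was *Esx1*, whose change was 3.87 within B/J (standard error 0.461, adjusted p = 5.28e-04) and 0.85 within J/B (standard error 0.417), or 1.33 there with library totals. The difference was -3.02 (standard error 0.601, unadjusted p = 0.00111, adjusted p = 1 in edgeR), and DESeq2 called it (adjusted p = 0.00893). *Esx1* lies on the X chromosome, so its copy in these male lines came from the mother, B6 in B/J and JF1 in J/B. Without ESC B/J replicate 2 its change within B/J was 4.48.

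At day 12 all 10 members had lower estimates in J/B than in B/J, from -0.62 for *Ets2* to -2.11 for *Esx1*, as had 48.7% of all genes. The estimate of *Elf5* turned to 0.10 without NPC B/J replicate 1, and that of *Gcm1* was -0.04 without NPC J/B replicate 1. None was called by edgeR, which called 1 of all genes (0.0061%). In all, 3 members were at an unadjusted p under 0.05, *Esx1* (adjusted p = 0.734), *Gata2* (-1.67, adjusted p = 0.763) and *Tfap2c* (-1.26, adjusted p = 0.766), as were 6.4% of all genes (1050, or 310 without NPC B/J replicate 1, 1911 without NPC B/J replicate 2 and 3062 with the block). DESeq2 called 70 genes, among them *Esx1* (adjusted p = 4.35e-04). In TMM-normalized CPM both B/J libraries were above both J/B libraries for 8 members, all but *Elf5* and *Gcm1*, against 21.1% of all genes. In ESCs 0 members and 0 genes (0%) were called between the crosses, with 346 genes (2.11%) and 1 member, *Elf5*, at an unadjusted p under 0.05. Those genes numbered 188 with limma-voom, 211 without ESC B/J replicate 1, 874 with the block and 1293 without ESC J/B replicate 2. There DESeq2 called 10 genes and limma-voom 0.

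Levels also differed with the replicate number within a stage. In ESCs, the libraries numbered 2 were above those numbered 1 in both crosses for *Cdx2*, *Gata2*, *Gata3*, *Hand1* and *Tfap2c*, 5 of 10 members against 34% of all genes. In NPCs, the libraries numbered 2 were below those numbered 1 in both crosses for *Cdx2*, *Gata2*, *Hand1*, *Tfap2c*, *Ets2* and *Esx1*, 6 of 10 against 33% of all genes. The labels do not say what the numbers share.

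Across the 8 libraries, log2 levels of most members ran together. Pearson's r was 0.98 for *Cdx2* and *Gata2*, for *Gata2* and *Gata3* and for *Cdx2* and *Hand1*, while *Tead4* had an r of -0.29 to -0.64 with the other members. The points share the stage difference and their libraries, so these values describe the pattern only. By the same measure, the genes most like *Cdx2* were *Crybg1* (0.997), *Ascl2* and *Wbp4* (both 0.995). Those most like *Gata2* were *Cdh3*, *Prss8* (both 0.997) and *Zbtb10* (0.994), and those most like *Ets2* were *Mmp28*, *Ctsb* and *Afap1l2* (all 0.999). *Ascl2* and *Cdh3* are also on the lists of trophoblast genes below.

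Of 12 further transcription factors known from trophoblast, 9 rose, 1 fell and 2 did not pass, with a median log2 fold change of 2.42. *Dlx3*, a homeobox factor of the labyrinth, was at 0.142 to 0.488 CPM in ESCs and 29.4 to 85.5 CPM in NPCs (log2 fold change 6.94, adjusted p = 1.24e-05). *Tfap2a* (4.87), *Cited1* (3.64), *Snai1* (3.04), *Ascl2*, the factor of the spongiotrophoblast (2.71), *Arid3a* (2.60), *Cited2* (2.24), *Ppard* (1.24) and *Bhlhe40* (1.11) also rose. *Klf5*, which acts in both pluripotent cells and trophectoderm, fell by 3.18. *Eomes*, a T-box factor of trophoblast stem cells, had an estimate of -0.85 (adjusted p = 0.194) and *Ovol2* one of 0.23 (adjusted p = 0.684).

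All 14 signalling genes known to act above these factors changed, 8 upwards and 6 downwards. In the Hippo pathway, *Amot* (2.50), *Lats2* (2.50), *Wwtr1*, which encodes TAZ (1.37), and *Lats1* (0.83) rose, and *Yap1* was called lower (-0.31, adjusted p = 0.0320). That call of *Yap1* ended without each of the 8 libraries in turn, and its sign turned with library totals (0.16, adjusted p = 0.220), which moved the median of all genes from 0.17 to 0.65. The FGF ligand gene *Fgf4* fell by 5.65 while its receptor gene *Fgfr2* rose by 3.73. *Nodal* (-5.14), *Bmp4* (-2.19), *Rbpj* (-1.46) and the convertase gene *Pcsk6* (-1.26) fell, *Pcsk6* not with library totals (adjusted p = 0.0718), and the convertase gene *Furin* (2.55), *Notch1* (1.01) and *Bmpr1a* (0.53) rose.

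Of 16 products of trophoblast stem cells and their derivatives, 15 were tested and 14 rose. Of those tested, 9 had at most 6 reads in any ESC library and passed the filter through NPC libraries alone. The list had a median of 7.01 when genes without a read in ESCs are set at their lower bound. *Tpbpa*, a marker of the spongiotrophoblast, had 0 reads in ESCs and 450, 185, 281 and 171 CPM in the NPC libraries. It was at least 9745-fold higher on library totals and 7004-fold by TMM, with a floor of 3 counts for all ESC libraries together. *Pappa2*, a placental protease gene, had 0 reads in ESCs and 314, 270, 199 and 172 CPM in NPCs. The placental lactogen gene *Prl3b1* (29.4 to 74.1 CPM in NPCs), the cathepsin gene *Ctsq* (17.4 to 43.2), *Prl2c2* (5.87 to 16.2) and *Prl3d1* (0.454 to 8.26) were also without a read in ESCs. *Synb*, an envelope gene of the syncytiotrophoblast, was not tested, with 5 reads in all NPC libraries. The keratin genes *Krt8* and *Krt18*, which other simple epithelia also express, had the highest levels, 568 to 1557 and 392 to 985 CPM in NPCs. Summed over the list, ESC libraries were at 93.7 to 163 CPM, B/J NPCs at 5013 and 2779 CPM and J/B NPCs at 2571 and 1957 CPM. The 10 members summed to 90.7 to 161 CPM in ESCs, to 1250 and 739.7 CPM in B/J NPCs and to 536 and 463 CPM in J/B NPCs. For both lists both B/J NPC libraries were above both J/B NPC libraries, and for the neural markers both were below (132 and 335 against 530.5 and 553 CPM). The product sum is led by the keratins, with *Krt8* at 1557 and *Krt18* at 985 of the 5013 CPM in B/J replicate 1. Not every product ran this way. *Prl3d1* was at 0.454 and 0.790 CPM in B/J NPCs against 8.26 and 3.47 CPM in J/B NPCs. *Prl2c2* was at 7.47 and 5.87 against 16.2 and 10.9 CPM. The part of these lists in the difference between the crosses was not tested.

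**Figure D4:**
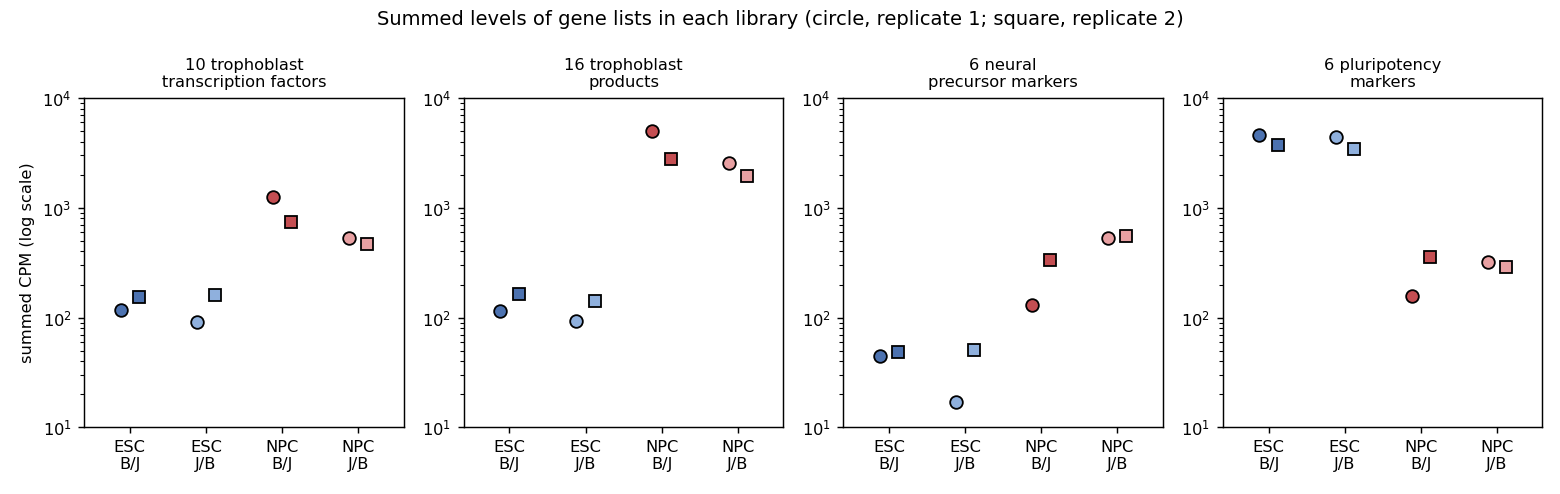
Summed CPM of 4 gene lists in each library on a log axis, with circles for replicate 1 and squares for replicate 2. In NPCs the sums of the 10 factors and of the 16 products are highest in B/J replicate 1, at 1250 and 5013 CPM, where the sum of the neural precursor markers is lowest, at 132 CPM.

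Paralogues did not all follow the members. Of 17 genes of the same families 14 were tested, 8 rose, 1 fell and 5 did not pass, with a median of 1.504. *Cdx1* fell from 95.0, 17.9, 135 and 10.3 CPM in ESCs to at most 0.429 CPM in NPCs, opposite to *Cdx2*. *Tead3* rose by 3.12 and *Ets1* by 3.25, while *Tead1* (-0.46, adjusted p = 0.128) and *Tead2* (0.24, adjusted p = 0.332) did not pass, *Tead2* except with library totals (0.72, adjusted p = 0.0131) and scaling to *Gapdh*, *Gusb* and *Tbp* (0.87, adjusted p = 0.00306). *Tfap2b*, with 1 read over the 4 ESC libraries, was at 46.2 to 199.9 CPM in NPCs. *Gata6* rose by 2.93, to at most 12.997 CPM, and *Gata4* by 1.02, a call that ended without any 1 of 4 libraries. *Gata4* was at 18.0 and 19.3 CPM in J/B NPCs but at 3.83 and 1.99 CPM in B/J NPCs, against 2.03 to 3.06 CPM in ESCs.

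Since the members are also used outside the trophoblast, markers of those sites were read in the same libraries. For *Cdx2*, of 11 caudal and gut genes 10 were tested, 3 rose and 4 fell (median -0.38), of which *Hoxc10* did not pass with library totals (adjusted p = 0.07465). The list summed to 73.9 to 148 CPM in ESCs, to 34.5 and 25.5 CPM in B/J NPCs and to 288.5 and 83.8 CPM in J/B NPCs. The genes called higher were *Tbx6* (1.46), *Sox17* (3.34) and *Foxa2*, a factor of endoderm and floor plate (5.29). *T*, the brachyury gene, did not pass between the stages (-0.35, adjusted p = 0.730). *Hoxb9*, a posterior Hox gene, did not pass (2.10, adjusted p = 0.0510) but did with library totals (adjusted p = 0.0263). In the J/B NPC libraries *T* was at 173 and 44.2 CPM, *Hoxb9* at 63.6 and 11.05 CPM and *Foxa2* at 35.3 and 11.7 CPM. Each was above both B/J NPC libraries, an order not compared with that of all genes. In J/B NPC replicate 2, *T* was below both ESC libraries numbered 2 (71.97 and 58.2 CPM). The gut genes *Vil1* and *Cdh17* stayed at or below 1.198 CPM in all libraries. For *Hand1*, of 10 cardiac and lateral mesoderm genes 8 were tested, 6 rose and 1 fell (median 2.21). The call of *Hand2*, which also counts among the paralogues and the sympathetic neuron genes, ended in DESeq2 (adjusted p = 0.0569) and without any 1 of 6 libraries. The list summed to 4.09 to 9.81 CPM in ESCs and 11.4 to 47.4 CPM in NPCs. *Tnnt2*, the cardiac troponin T gene (4.20, adjusted p = 0.00473), *Foxf1*, a factor of lateral mesoderm (4.16, adjusted p = 0.00215), and *Isl1* (2.53, adjusted p = 0.00506) rose, also without any 1 library. *Tnnt2* was at 0.941 to 1.92 CPM in NPCs. The gene that fell was *Myh6*, a cardiac myosin gene (-2.06, adjusted p = 0.00908), and *Tbx20* did not pass (-0.99, adjusted p = 0.166). *Nkx2-5* was at or below 0.214 CPM in all libraries. For *Gata2*, of 9 blood and endothelial genes 7 were tested, 5 rose and 1 fell (median 2.47). Of these, *Cdh5*, the endothelial cadherin gene, was at 254 to 880 CPM in NPCs and made up most of the list's NPC sum of 305 to 941 CPM, and *Kdr*, a VEGF receptor gene (4.09), *Lmo2* (3.24), *Runx1* (2.47) and *Tal1* (1.94) rose as well, also without any 1 library, while *Pecam1* fell by 2.35 and the haemoglobin genes *Hba-a1* and *Hbb-bt* had 0 reads in all 8 libraries.

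Of 7 genes of GATA-dependent inhibitory neurons, 5 rose and none fell (median 3.46 with *Helt*, without a read in ESCs, at its lower bound), to sums of 22.3 to 95.3 CPM in NPCs. *Tal2*, a factor of these neurons, reached 2.79 to 12.8 CPM. All 5 genes of sympathetic neurons rose (median 3.84 with *Dbh* at its lower bound), to sums of 32.3 to 100.4 CPM. Of 6 surface ectoderm genes, 5 rose and *Grhl3* fell, not with scaling to *Gapdh*, *Gusb* and *Tbp* (adjusted p = 0.0589; median of the list 6.29), to sums of 38.5 to 168 CPM, with *Trp63* at 10.1 to 43.7 CPM. Of 6 neural crest genes, which share *Tfap2a*, *Tfap2b* and *Ets1* with the lists above, 4 rose, *Foxd3* fell and *Sox10* stayed at or below 1.95 CPM (median 4.06). For *Tfap2c*, 5 of 6 germ cell genes fell (median -2.78), of which *Dazl* and *Nanos3* did not pass with library totals (adjusted p = 0.0832 and 0.0793), while *Prdm1* did not pass (1.11, adjusted p = 0.0714) but did with library totals (adjusted p = 0.0242) and with DESeq2 (adjusted p = 0.0312). *Cdx2*, *Gata2*, *Gata3*, *Hand1*, *Elf5*, *Ets2*, *Esx1* and *Tfap2c* were highest in the B/J NPC library numbered 1. The sum of the blood and endothelial genes was also highest in that library (941 CPM), but *Cdh5* alone was 880 CPM of it. *Kdr* (23.2 CPM) and *Pecam1* (26.3 CPM) were at their NPC highest there, and *Tal1* (3.02 CPM) and *Lmo2* (1.98 CPM) at their NPC lowest. The genes of inhibitory neurons (22.3 CPM), sympathetic neurons (32.3 CPM) and neural crest (167 CPM) had their lowest NPC sums there. Through NPC libraries alone, 3 of 7 inhibitory neuron, 4 of 5 sympathetic, 3 of 6 surface ectoderm and 3 of 8 cardiac genes tested had passed the filter, as had *Cdh5* among the blood and endothelial genes, *Hand2* and *Tfap2b* among the paralogues, *Tfap2b* among the neural crest genes and *Emx2* among the neural precursor markers. The part of each of these cell types in the members' levels was not tested.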

How the data were processed

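RNA was measured in 8 libraries, 2 for each stage and cross. The authors aligned paired reads with TopHat2 to mm39 masked at JF1 variants with a refGene annotation, kept proper pairs of mapping quality 20 or more, and deposited raw counts per gene, without normalization and summed over both alleles. HTSeq, DESeq2 and edgeR are named in the submitters' processing notes without role or version. The 5 closing entries for unassigned reads (no gene for 5.76% to 10.9% of reads, ambiguous for at most 0.554%) were left out. CPM were computed here from totals per library.

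Counts were tested with edgeR 4.0.16 in R 4.3.3 (quasi-likelihood, robust, TMM, filterByExpr with a minimum count of 10, 4 group means) with Benjamini-Hochberg adjustment over 16399 genes. DESeq2 1.42.0, limma 3.58.1, other scalings and filters, replicate blocks and leaving out each library were alternatives. The fits were tested on simulated data with known changes. Between the stages, 37.5% of 2-fold changes were recovered and 8.44% of calls were false. For J/B against B/J in NPCs these values were 4.29% and 5.83%, and for the interaction 4.48% and 12.3%. Gene positions, lengths and promoter sequences came from GRCm39 and GENCODE vM39, the same assembly as mm39. All members and any gene of the lists could be named, besides the 3 genes most like each member among those with a mean of at least 1 CPM. Members and lists were chosen with earlier results of these data known. Allelic reads were not analysed here. Some items of the lists and windows are not reported here.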

Additional observations from a re-analysis of the deposited data

How the results depend on the processing

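Of the members, between 8 and 10 were called between the stages over all alternatives, against 9 in the setting reported, and no called change turned its direction in any comparison. The number called within B/J was 5 to 9 when each library was left out in turn. Within J/B it was 4 to 7, against 6. DESeq2 called 1 member in the interaction and 1 member between the crosses in NPCs, *Esx1* both times, where edgeR called 0. The smaller changes, those of *Tead4* and *Tfap2c*, were the ones whose call between the stages depended on the setting. The median change of all genes was 0.17 by TMM, 0.65 by library totals and 0.80 by the 3 housekeeping genes *Gapdh*, *Gusb* and *Tbp*. In the same order, 54.0%, 70.1% and 75.0% of all calls were upwards. Over all context lists 68 different genes were higher and 26 lower, and 65 to 74 and 20 to 26 over the alternatives run. The cause of these shifts was not tested.

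The replicate numbers were checked for pairing. Differences between replicates 2 and 1 correlated across genes with an r of 0.518 between the crosses in ESCs, 0.587 in NPCs and 0.0489 to 0.0915 across the stages. The numbers thus shared little of their differences across the stages. Whether NPCs came from the ESC culture of the same number cannot be told from this. With a replicate block, 9 members were called between the stages, 8 within B/J and 6 within J/B, and with a replicate block within each stage 10, 9 and 8. Within J/B this added *Cdx2* (2.42, adjusted p = 1.99e-04) and *Hand1* (3.52, adjusted p = 5.23e-04). Depth limits *Elf5* and *Gcm1*, which had at most 4 and 7 reads in an ESC library. Leaving out a library leaves its group with 1, which was then assumed to vary like the others.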

Other observations

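Several genes on the lists differed between the ESC libraries by number more than by cross. The libraries numbered 2 had more *T*, the brachyury gene of the primitive streak (71.97 and 58.2 against 5.41 and 7.45 CPM), and more *Amot* (54.7 and 45.0 against 6.80 and 10.7 CPM), as they had of *Cdx2* and *Hand1*. They had less *Cdx1* (17.9 and 10.3 against 95.0 and 135 CPM), *Esrrb* (505 and 432 against 982 and 857 CPM) and *Nanog* (540.3 and 485 against 701 and 808 CPM). *Sox2* was higher in the same libraries (692 and 624 against 378 and 391 CPM). Each pair of values gives B/J first, and these genes were singled out after their values were seen.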
